A study of Mus musculus with 24 samples.

Results

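A list of 37 mouse genes that are known for a very long genomic span was examined, out of 23917 genes in each deposited table. They were chosen by name, for their span and not for their change, though earlier results of these data were known. A gene was described in a table where its mean was at least 0.5 FPKM (a level of fragments corrected for transcript length and for the library's total). All 37 were found by symbol, 34 of them were described in RNA and 29 in ribosome footprints. The series holds 24 libraries from E14, an established mouse embryonic stem cell line. Cells had been transfected with an antisense oligonucleotide that contains locked nucleic acids, a modified backbone that strengthens pairing, against tRF-GG, a fragment cut from glycine tRNAs (called the inhibitor), or with esiRNA against GFP, a pool of short interfering RNAs used as a control (called GFP), or had been mock-transfected (mock). For each of these 3 transfections, 4 libraries of RNA and 4 libraries of ribosome-protected RNA pieces, the footprints, were made. The labels name no other agent or allele, and do not say whether libraries of a group came from separate cultures, so p-values measure the spread between these libraries, which may be technical.

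The label of the list fits the annotation. Every one of the 37 genes spans more than 200 kb in the RefSeq annotation of GRCm38.p6 (the mm10 assembly), against a median of 15.4 kb over all genes of the files that could be matched, of which 4.21% (1000 genes) span more than 200 kb. Among the 37, spans run between 229.4 kb for Rbfox2 and 1998 kb for Macrod2, with a median of 522.6 kb. More than 500 kb are spanned by 19 of the genes, and more than 1000 kb by Macrod2, Fhit (1612 kb) and Auts2 (1106 kb).

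In genes of this kind almost all of the span is intron, so that RNA polymerase must travel far to complete an RNA whose exons are of ordinary length. Transcribing such a gene takes longer than transcribing a short one. The output of long genes is known to depend on elongation, on splicing within long introns and on suppression of early polyadenylation. Several of the listed genes, among them the human counterparts of Fhit, Wwox, Macrod2 and Immp2l, lie at common fragile sites, regions that break when replication is slowed. Embryonic stem cells divide fast, so the time available between divisions is short. A ribosome footprint is the piece of mRNA that a ribosome shields from nuclease, so the footprint level follows both the amount of an mRNA and how densely ribosomes sit on it, and the footprint value over the RNA value is called translational efficiency.

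Stretches before the start of 4 of the genes are shown because these are the genes at the ends of the RNA and footprint results below: Lpp and Dip2c had the lowest RNA differences between inhibitor and GFP cells, Immp2l the lowest footprint difference, and Supt3 was the only one of the 34 genes described in RNA that lay above 0. The sequences come from RefSeq on GRCm38.p6, plus strand, 150 bases each, and end at the base before the start used in that promoter table. The last base of the stretch lies directly before the annotated gene for Lpp (gene at chr16:24393350-24992578). It lies inside the annotated gene for Dip2c (chr13:9276507-9668928), Immp2l (chr12:41024061-41955588) and Supt3 (chr17:44777118-45119294). Capitals mark each CG dinucleotide, which reads the same on both strands.
Lpp, chr16:24393200-24393349: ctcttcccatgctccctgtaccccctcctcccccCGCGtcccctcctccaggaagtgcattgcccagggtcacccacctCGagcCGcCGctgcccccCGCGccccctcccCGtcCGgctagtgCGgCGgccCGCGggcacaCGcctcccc
Dip2c, chr13:9276375-9276524: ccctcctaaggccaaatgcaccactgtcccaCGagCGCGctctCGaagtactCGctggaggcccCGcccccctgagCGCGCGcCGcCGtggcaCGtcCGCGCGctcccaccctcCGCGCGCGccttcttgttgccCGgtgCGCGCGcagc
Immp2l, chr12:41023940-41024089: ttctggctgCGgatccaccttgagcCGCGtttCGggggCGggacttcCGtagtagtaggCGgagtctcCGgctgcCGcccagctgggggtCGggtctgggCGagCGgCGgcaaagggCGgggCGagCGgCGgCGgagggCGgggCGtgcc
Supt3, chr17:44777016-44777165: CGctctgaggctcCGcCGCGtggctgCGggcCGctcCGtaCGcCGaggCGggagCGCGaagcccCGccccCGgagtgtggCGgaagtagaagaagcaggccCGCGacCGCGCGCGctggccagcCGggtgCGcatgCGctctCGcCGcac

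All 4 stretches are rich in CG, with 14 CG dinucleotides for Lpp, 23 for Dip2c, 20 for Immp2l and 26 for Supt3. In the 250 bases before the start, which were available for 29 of the 37 genes, the median count of CG was 18, with a range of 1 in Nfia to 38 in Ptprk and Tcf12. The other genes of at least 200 kb tested in RNA had a median of 16.5 (308 genes with a promoter), all genes tested in RNA a median of 16 (9831 genes), and all promoters of the table, 1 for each gene, a median of 6 (27025 genes). At least 1 CG was present in 100% of the listed genes, in 98.7% of the other long genes, in 99.2% of all genes tested in RNA and in 91.7% of all promoters. The letters TATAAA, searched on both strands and unable to overlap a CG, were found in 0 of 29 listed genes, in 5.8% of the other long genes, in 6.4% of all genes tested in RNA and in 13.0% of all promoters, all in windows of the same length. Counts of CG ran widely among genes with low RNA differences, with 10 in Exoc4 and 38 in Ptprk, both among the 8 lowest, and 5 in Magi1, while Supt3 had 30.

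Libraries differed before any gene was compared. The ribosomal RNA precursor gene Rn45s took 62.7% of the summed FPKM in inhibitor RNA library 1, 39.1% in mock RNA library 1 and 18.1% in GFP RNA library 1, against 1.68% to 5.25% in the other RNA libraries, and 18.5% to 44.2% in the footprint libraries. Inhibitor RNA library 1 had 6697 genes at 1 FPKM or more, the fewest of the RNA libraries, where up to 11884 were seen. Read counts were not used here, so absolute depth is unknown, and FPKM were divided by a median-of-ratios factor per library (scaled FPKM below). This factor was 0.170 for inhibitor RNA library 1, 0.449 for mock RNA library 1 and 0.876 to 1.44 for the other RNA libraries. FPKM were deposited with 2 decimals, so scaled values of low genes in inhibitor RNA library 1 move in coarse steps and are imprecise. Stem cell markers fixed for this check (10 of 10 present, Pou5f1, Nanog and Sox2 among them) summed to 444 FPKM or more in every library, and fibroblast markers to 23.1 FPKM or less. A further 9 markers, of cells that resemble the 2-cell embryo, summed to 24.1 to 111 FPKM in inhibitor RNA, against 9.79 to 35.9 FPKM in GFP RNA and 9.90 to 23.0 FPKM in mock RNA. The part of the ribosomal share or of these markers in the results below was not tested beyond the values given without libraries numbered 1.

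Levels of the listed genes were low to moderate. Mean RNA levels of the 34 described genes ran between 0.546 scaled FPKM (Zbtb20, a zinc finger repressor) and 28.7 scaled FPKM (Exoc4, a subunit of the exocyst that tethers secretory vesicles), with a median of 3.34. Footprint means of 29 genes ran between 0.522 (Lpp) and 11.04 scaled FPKM (again Exoc4), with a median of 1.31. Just inside the level filter in RNA were Zbtb20 and Prkce (0.559), and just outside it was Atxn1 (0.234); in footprints Lpp was just inside and Auts2 (0.426) and Nbea (0.405) just outside. Besides Atxn1, the genes not described in RNA were Fhit (0.207), a dinucleotide hydrolase, and Nfia (0.0380), a nuclear factor of glial and other development. In footprints Mllt3, Zbtb20 and Prkce were left out as well. The filter used the mean over all libraries, and 31 of the 34 genes in RNA and 26 of the 29 in footprints had a mean of at least 0.5 in each of the 3 groups. In bulk libraries, fewer cells that express a gene and less RNA per cell cannot be told apart.

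In RNA, the listed genes were lower in inhibitor cells than in GFP cells in all but 1 of the genes described, and each by a modest amount. Of 34 genes, 33 had a difference below 0, with a median of -0.34 and quartiles of -0.49 and -0.17 on the log2(scaled FPKM + 1) scale, which understates changes of low genes. All 12560 genes tested had 52.2% below 0 and a median of -0.011. Lpp (-0.72), Dip2c (-0.71), Ptprk, Cux1 and Immp2l (-0.63 each) lay lowest. None passed the test alone: in limma with Benjamini-Hochberg adjustment over all genes tested, 0 of 34 were called (0.0159% of all genes tested were), and the lowest adjusted p was 0.876, for Dip2c. At an unadjusted p under 0.05, 9 of the 34 were lower (1.45% of all genes tested) and 0 were higher (1.66%).

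**Figure D1:**
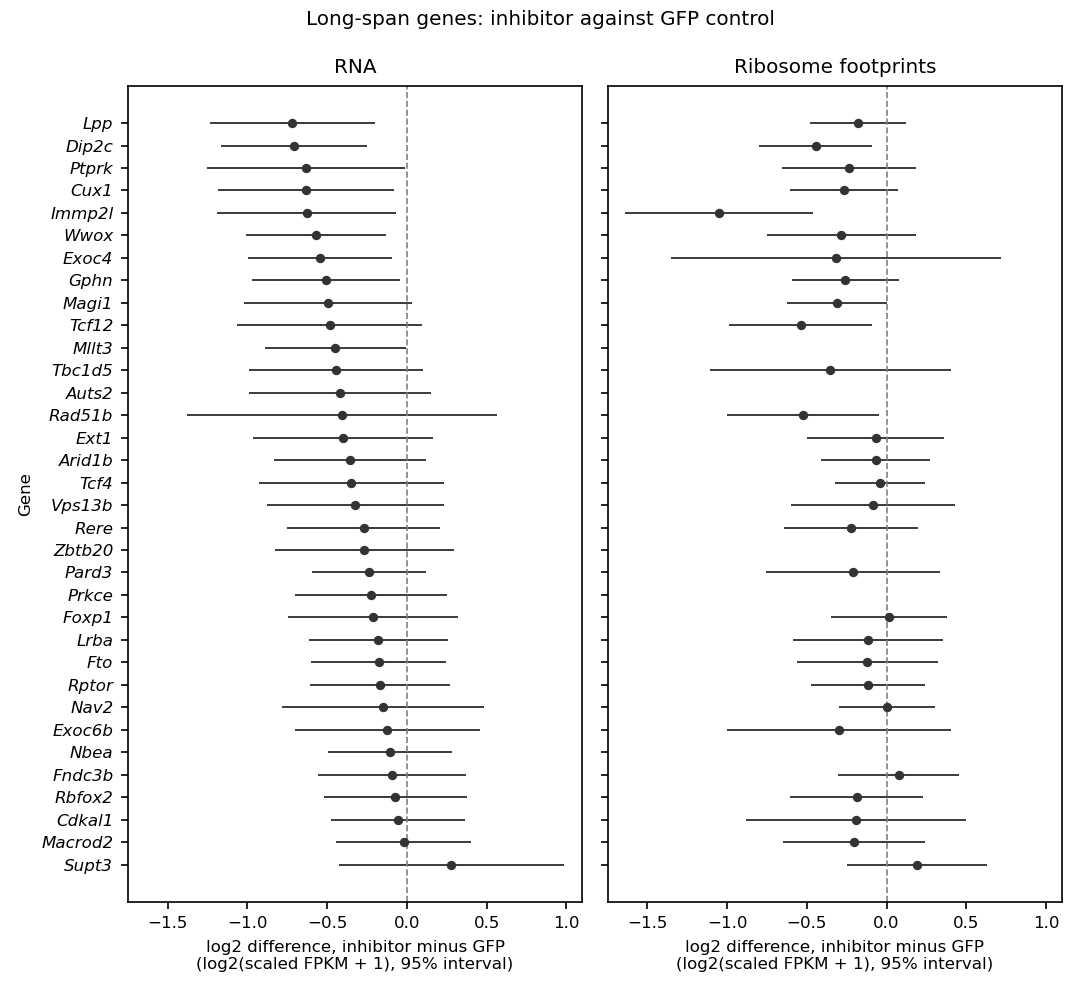
Difference between inhibitor and GFP cells for each long-span gene described, in RNA (left, 34 genes) and ribosome footprints (right, 29 genes), on the log2(scaled FPKM + 1) scale, with 95% intervals from limma, ordered by the RNA difference. Points lie left of the dashed line at 0 for 33 of 34 genes in RNA and 25 of 29 in footprints, and most intervals cross it.

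Libraries that carry the same number deviated together in RNA, so the fit with the number as a block was also read. With this replicate block the differences were the same, 0 of 34 genes were called (0.255% of all genes tested) and the lowest adjusted p was 0.232, for Ptprk in limma. At an unadjusted p under 0.05, 13 of 34 were lower (3.52% of all genes tested) and 0 were higher (3.34%). Lower values in all 4 numbered pairs were seen for 17 of 34 genes (9.32% of all genes tested). The inhibitor and GFP libraries did not overlap, with the inhibitor lower, for 4 genes (1.2%): Lpp, Dip2c, Wwox and Mllt3. Leaving out all libraries numbered 1, those with the most ribosomal RNA, gave a median of -0.27, with 31 genes below 0 and 5 lower at an unadjusted p under 0.05 (0.812% of all genes tested). That count was 4 without inhibitor RNA library 1 (0.828% of all genes tested), GFP RNA library 2 (1.68%) or GFP RNA library 4 (1.24%).

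Adhesion, polarity and cytoskeleton genes held the lowest difference. All 6 were below 0 in RNA against GFP, with a median of -0.37 and a range of -0.72 to -0.094, and 2 were lower at an unadjusted p under 0.05 (1.45% of all genes tested). Lpp, a LIM-domain protein of focal adhesions, had 1.89, 1.83, 1.72 and 1.78 scaled FPKM in inhibitor RNA libraries 1 to 4, against 4.11, 5.33, 2.54 and 2.97 in GFP libraries and 3.52, 3.80, 1.998 and 4.58 in mock libraries. All 4 inhibitor values lay close together and below every value of both controls. The difference from GFP was -0.72 (SE 0.24, 95% interval -1.24 to -0.20) and that from mock -0.64 (SE 0.24), with adjusted p of 1 in limma for each. Ptprk, a receptor tyrosine phosphatase at cell contacts (chr10:28074820-28597397), had 6.90, 10.2, 19.6 and 14.0 scaled FPKM in inhibitor RNA, against 13.5, 19.4, 23.0 and 21.4 in GFP RNA and 13.1, 20.9, 22.1 and 26.5 in mock RNA. The groups overlapped, but each inhibitor library was lower than the GFP library and the mock library of its number. Its difference from GFP was -0.63 (SE 0.29; SE 0.16 with the block). Magi1, a junction scaffold, lay at -0.49 (SE 0.25), and Pard3, a polarity protein, at -0.24 (SE 0.17). Nav2, a microtubule-binding protein, lay at -0.15 (SE 0.30), and Fndc3b, a membrane protein with fibronectin repeats, at -0.094 (SE 0.22).

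Of the 12 transcription and chromatin genes, 10 were described in RNA, and 9 of them were below 0 against GFP, with a median of -0.35 and 2 lower at an unadjusted p under 0.05 (1.45% of all genes tested). Cux1, a homeodomain factor, had 1.83, 4.31, 3.77 and 5.69 scaled FPKM in inhibitor RNA, against 6.92, 6.24, 4.87 and 7.19 in GFP RNA and 6.80, 7.54, 4.53 and 6.10 in mock RNA. It was lower in each numbered pair with either control, at -0.63 (SE 0.26) against GFP and -0.61 (SE 0.26) against mock. Mllt3, a reader of acetylated histones that joins elongation factors, had 0.708, 0.911, 0.542 and 0.437 scaled FPKM in inhibitor RNA, against 1.13, 1.76, 1.02 and 1.1025 in GFP RNA and 0.914, 1.70, 1.52 and 1.39 in mock RNA. Its inhibitor values lay below all values of both controls, the highest inhibitor and the lowest mock library nearly touching, and its difference was -0.45 (SE 0.21) against GFP. Auts2, a nuclear regulator found with Polycomb proteins and the second longest gene described, had 0.177, 0.868, 0.882 and 0.784 scaled FPKM in inhibitor RNA, against 0.856, 1.39, 1.09 and 1.53 in GFP RNA and 1.54, 0.952, 0.219 and 1.44 in mock RNA. Inhibitor library 1 and mock library 3 were the low ones, and the difference from GFP was -0.42 (SE 0.27). The E proteins Tcf12 (-0.48, SE 0.27) and Tcf4 (-0.35, SE 0.27), the BAF chromatin remodelling subunit Arid1b (-0.36, SE 0.22), the corepressor Rere (-0.27, SE 0.22), Zbtb20 (-0.27, SE 0.26) and the forkhead factor Foxp1 (-0.21, SE 0.25) lay between.

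Supt3, which encodes a subunit of the SAGA coactivator, was the exception among the 34 genes described in RNA. It had 4.60, 2.53, 4.11 and 3.21 scaled FPKM in inhibitor RNA, against 3.17, 1.96, 2.24 and 3.89 in GFP RNA and 5.22, 1.57, 0.912 and 3.12 in mock RNA. Values of the 3 groups overlapped widely, and mock RNA ran over the broadest range. Its difference from GFP was 0.28 (SE 0.33, 95% interval -0.43 to 0.98), and it was -0.062 on the FPKM as deposited, without scaling. Supt3 overlaps Runx2 in the annotation, and whether counting used strand is not stated, so the 2 genes' reads may not be told apart.

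All 6 vesicle traffic genes were below 0 in RNA against GFP, with a median of -0.25 and 1 lower at an unadjusted p under 0.05 (1.45% of all genes tested). Exoc4 had 14.9, 28.8, 19.2 and 21.1 scaled FPKM in inhibitor RNA, against 31.1, 36.5, 25.4 and 29.1 in GFP RNA and 37.6, 41.2, 27.7 and 31.3 in mock RNA. Only inhibitor library 2 reached into the range of the controls, and each inhibitor library was below both controls of its number. The difference was -0.54 (SE 0.21) from GFP and -0.71 (SE 0.21, adjusted p 0.719 in limma) from mock. Tbc1d5, a regulator of Rab GTPases on endosomes, lay at -0.44 (SE 0.25) and Vps13b, a lipid transfer protein of the Golgi, at -0.32 (SE 0.26). Lrba (-0.18, SE 0.20) and Nbea (-0.11, SE 0.18), related BEACH-domain proteins, and the second exocyst gene Exoc6b (-0.12, SE 0.27) were nearer 0 than Exoc4.

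Enzymes of sugar, nucleotide and lipid chemistry held the second lowest difference and also the one nearest to 0. All 4 that were described in RNA were below 0 against GFP, with a median of -0.48 and 2 lower at an unadjusted p under 0.05 (1.45% of all genes tested). Dip2c, whose protein carries domains like those of enzymes that activate fatty acids, had 0.944, 2.52, 1.68 and 1.67 scaled FPKM in inhibitor RNA, against 3.23, 3.69, 3.11 and 3.29 in GFP RNA and 3.03, 3.33, 2.48 and 3.67 in mock RNA. Inhibitor and GFP libraries were fully apart, while inhibitor library 2 slightly exceeded mock library 3. The difference from GFP was -0.71 (SE 0.21, 95% interval -1.17 to -0.25), and from mock -0.63 (SE 0.21). Wwox, an oxidoreductase-like tumour suppressor with WW domains, had 1.0025, 0.624, 0.695 and 1.16 scaled FPKM in inhibitor RNA, against 2.33, 1.33, 1.47 and 2.02 in GFP RNA and 2.47, 1.88, 1.79 and 1.76 in mock RNA. All inhibitor values were below all control values, and the difference was -0.57 (SE 0.21) from GFP and -0.67 (SE 0.21) from mock. Macrod2, which removes ADP-ribose from proteins and is the longest gene of the list (chr2:140395303-142392966), had 1.24, 2.35, 1.38 and 1.91 scaled FPKM in inhibitor RNA, against 1.79, 1.79, 1.46 and 1.86 in GFP RNA and 1.72, 1.73, 1.502 and 1.98 in mock RNA. The 2 lowest values and the highest were all in inhibitor cells, and the difference was -0.020 (SE 0.20, 95% interval -0.44 to 0.40). Ext1, which polymerises heparan sulfate chains, lay at -0.40 (SE 0.26).

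Among the remaining roles, Gphn, a synaptic scaffold that also makes the molybdenum cofactor, had 1.36, 1.32, 1.62 and 1.18 scaled FPKM in inhibitor RNA, against 2.99, 3.09, 1.32 and 2.37 in GFP RNA and 1.87, 1.99, 2.02 and 2.39 in mock RNA. GFP library 3 alone lay within the inhibitor range, and the difference from GFP was -0.51 (SE 0.22). The kinase Prkce (-0.22, SE 0.22) and Rptor, the raptor scaffold of mTOR signalling (-0.17, SE 0.21), lay below 0 as well. Immp2l, a subunit of the peptidase of the inner mitochondrial membrane, had 1.0025, 0.136, 0.396 and 0.234 scaled FPKM in inhibitor RNA, against 0.514, 2.10, 0.972 and 1.42 in GFP RNA and 1.85, 2.04, 1.19 and 1.48 in mock RNA. Inhibitor library 1 was above GFP library 1, the other 3 pairs ran the opposite way, and every inhibitor value was below every mock value. Its difference was -0.63 (SE 0.26) from GFP and -0.90 (SE 0.26, adjusted p 0.712 in limma) from mock. Rad51b, a recombination repair protein, was listed at 0 in inhibitor library 1 and in GFP library 1, with 1.79, 0.834 and 1.28 scaled FPKM in the other inhibitor libraries, 3.55, 1.24 and 2.54 in the other GFP libraries, and 3.10, 2.70, 0.766 and 2.90 in mock libraries. Its spread was the widest of the list, with a difference of -0.41 (SE 0.45).

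The 3 genes of splicing and RNA modification were nearest to 0 as a group, with a median of -0.072. Of these, 0 were lower at an unadjusted p under 0.05 (1.45% of all genes tested). Rbfox2, a splicing regulator, had 17.6, 21.4, 16.6 and 24.1 scaled FPKM in inhibitor RNA, against 17.2, 23.9, 18.2 and 24.7 in GFP RNA and 16.2, 24.1, 14.0 and 22.1 in mock RNA. Libraries of the same number moved together across the 3 transfections, and the difference from GFP was -0.072 (SE 0.21). Cdkal1, which modifies a tRNA base, had 7.02, 6.16, 5.63 and 5.97 scaled FPKM in inhibitor RNA, against 4.59, 8.53, 5.84 and 7.51 in GFP RNA and 7.38, 7.59, 6.36 and 8.26 in mock RNA. GFP values lay on both sides of the inhibitor values, and the difference was -0.057 (SE 0.20). Fto, an RNA demethylase, lay at -0.18 (SE 0.20).

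**Figure D2:**
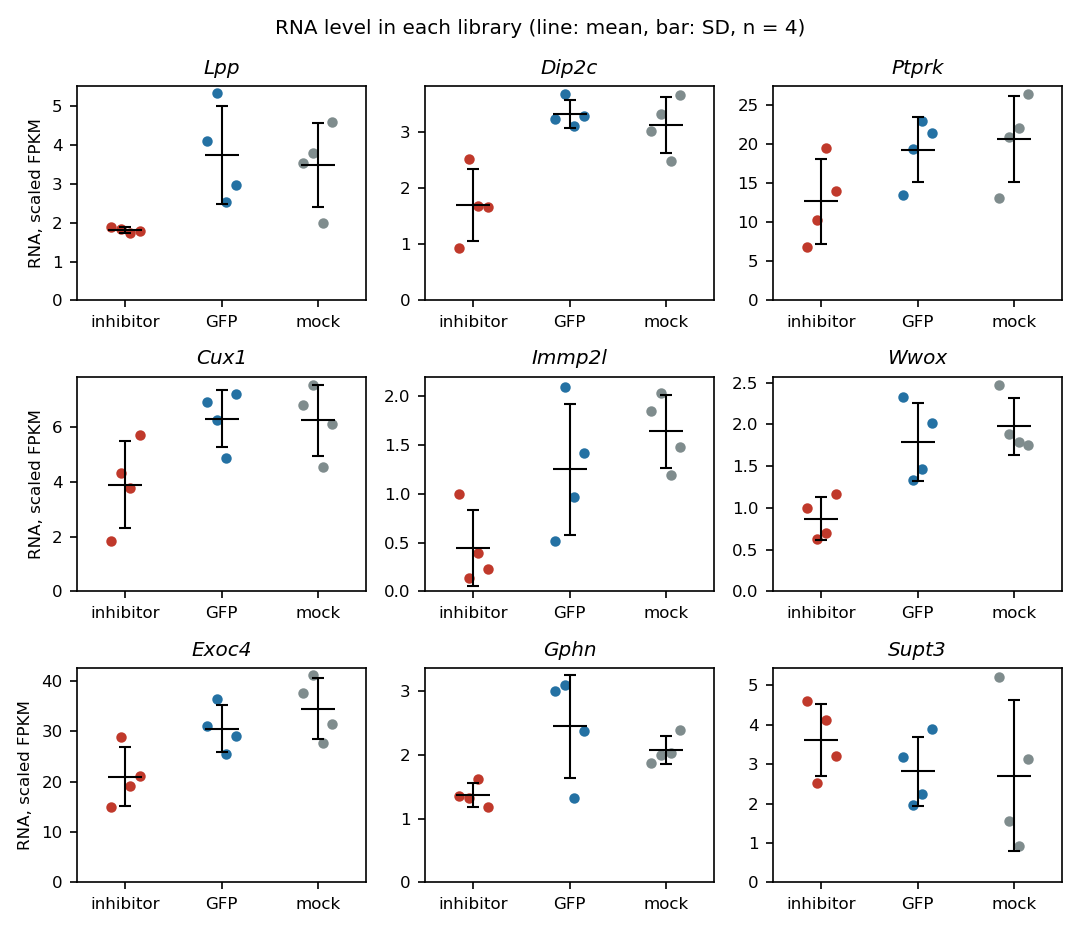
RNA level (scaled FPKM, linear axis from 0) in each library for the 8 long-span genes with the lowest RNA difference between inhibitor and GFP cells and for Supt3, the only one of the 34 genes described that lay above 0. Each point is a library, the line is the mean and the bar the SD of 4 libraries. Inhibitor points of Lpp lie between 1.72 and 1.89, below all 8 control points, and those of Supt3 lie among the control points.

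Against mock cells the picture in RNA was alike, though both comparisons use the same inhibitor libraries. Of 34 genes, 31 were below 0, with a median of -0.25, against 51.6% and -0.0090 over all genes tested, and 0 were called (0.0239% of all genes tested; 0.271% with the block, again 0 of the list). Lower at an unadjusted p under 0.05 were 9 genes (1.73% of all genes tested), or 13 with the block (4.15%), and 0 were higher (1.93%). Lower in all 4 numbered pairs were 16 of 34 (7.65%). Without mock RNA library 3 the median was -0.38, and without all libraries numbered 1 the count lower at an unadjusted p under 0.05 was 4 (1.23% of all genes tested). The inhibitor and mock libraries did not overlap for 5 genes (1.22%), which were Mllt3, Lpp, Gphn, Wwox and Immp2l. Above 0 were Supt3 (0.44, SE 0.33), Rbfox2 (0.073, SE 0.21) and Nbea (0.013, SE 0.18). The same 31 genes that were below 0 here were below 0 against GFP too.

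Between the 2 controls the listed genes lay about evenly on both sides of 0 with all libraries in the fit. In RNA from GFP cells against mock cells, 16 of 34 genes were below 0 (48.8% of all genes tested), the median was 0.012, and 0 genes were lower and 0 higher at an unadjusted p under 0.05 (0.263% of all genes tested in each direction). None was called in limma (0 of all genes tested), with or without the block. On FPKM as deposited, without scaling, 3 of 34 were below 0, with a median of 0.20 beside 0.21 over all genes tested. Without mock RNA library 3, 27 of 34 were below 0, with a median of -0.071, and over all libraries left out in turn the count below 0 ran from 12 to 27. The share of all genes tested below 0 was not computed for these fits. Scaled differences ran from -0.38 for Rad51b (SE 0.45) to 0.20 for Zbtb20 (SE 0.26).

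Per library, the median of the 34 genes after centring each gene on its mean over 12 libraries was -0.27, -0.12, -0.20 and -0.17 in inhibitor RNA libraries 1 to 4. It was 0.095, 0.28, -0.081 and 0.17 in GFP libraries and 0.16, 0.26, -0.13 and 0.20 in mock libraries. The 3 lowest medians were those of inhibitor libraries 1, 3 and 4, and mock library 3 lay slightly under inhibitor library 2. Library 3 was the lowest of its group in both controls. Within numbered pairs, the median difference between inhibitor and GFP was -0.32, -0.41, -0.16 and -0.29 for pairs 1 to 4, with 27, 30, 26 and 30 of 34 genes below 0. The pair numbered 3 thus had the smallest difference and pair 2 the largest. Between inhibitor and mock the pair medians were -0.43, -0.38, -0.14 and -0.37, so there the pair numbered 1, with the most ribosomal RNA, was the most extreme.

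**Figure D3:**
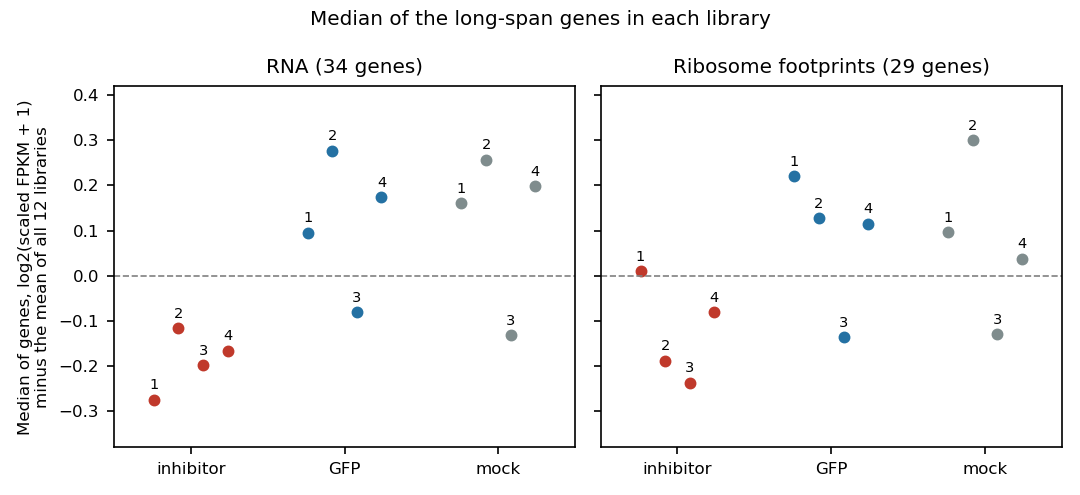
Median over the long-span genes of log2(scaled FPKM + 1), each gene centred on its mean over the 12 libraries of its table, for RNA (left, 34 genes) and footprints (right, 29 genes). Each point is a library, labelled with its number. Inhibitor RNA libraries lie between -0.27 and -0.12, and the lowest control libraries are those numbered 3, at -0.081 in GFP and -0.13 in mock.

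Ribosome footprints leaned the same way, with smaller differences on the log2(scaled FPKM + 1) scale. That scale shrinks differences of low genes more, and the listed genes were lower in footprints (median 1.31) than in RNA (3.34). The sizes in the 2 assays are thus not compared on equal terms. Of 29 genes, 25 were below 0 in inhibitor against GFP cells, with a median of -0.21 and quartiles of -0.30 and -0.084, whereas all 10669 genes tested had 47% below 0 and a median of 0.013. In limma 0 of 29 were called (0.00937% of all genes tested), and the lowest adjusted p was 0.618, for Immp2l. Lower at an unadjusted p under 0.05 were 4 genes (1.48% of all genes tested), namely Immp2l, Tcf12, Rad51b and Dip2c, and 0 were higher (1.83%). Footprint libraries of the same number deviated together between inhibitor and GFP, and with the replicate block 0 were called (0.075% of all genes tested), 5 were lower at an unadjusted p under 0.05 (3.52%) and the lowest adjusted p was 0.150. Lower in all 4 pairs were 10 of 29 genes (9.01%). Without inhibitor footprint library 3 the median was -0.11, and the count lower at an unadjusted p under 0.05 was 2 without GFP footprint library 1 (1.62% of all genes tested) and 1 without all libraries numbered 1 (1.31%). All 25 genes that were below 0 in footprints were also below 0 in RNA, and the footprint difference was nearer 0 than the RNA difference for 22 of 29. The shares of all genes tested for these 2 counts were not computed.

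Immp2l had the lowest footprint difference of the list and ranked among the lowest 0.272% of the genes tested. It had 1.33 scaled FPKM in inhibitor footprint library 1, was listed at 0 in libraries 2 and 3, and had 0.252 in library 4, against 2.13, 2.26, 1.37 and 1.22 in GFP footprints and 1.43, 1.69, 1.09 and 0.491 in mock footprints. Inhibitor library 1 lay among the controls and the other 3 below all of them. The difference was -1.05 (SE 0.27, 95% interval -1.64 to -0.46) from GFP and -0.70 (SE 0.27) from mock. Tcf12 had 1.01, 0.547, 0.183 and 0.975 scaled FPKM in inhibitor footprints, against 1.79, 1.498, 0.845 and 1.51 in GFP footprints and 1.39, 2.12, 0.929 and 1.55 in mock footprints. Each inhibitor value was below both controls of its number, and the difference was -0.54 (SE 0.21) from GFP and -0.58 (SE 0.21) from mock. Dip2c had 0.554, 0.620, 0.262 and 0.447 scaled FPKM in inhibitor footprints, against 1.11, 1.15, 0.527 and 1.29 in GFP footprints and 1.07, 1.09, 0.559 and 0.687 in mock footprints. Library 3 was the lowest in every group, and the difference from GFP was -0.45 (SE 0.17). Rad51b had 0.953, 0.325, 1.22 and 0.309 scaled FPKM in inhibitor footprints, against 2.02, 1.34, 1.03 and 1.24 in GFP footprints and 2.25, 1.52, 0.849 and 1.497 in mock footprints. Pair 3 ran the opposite way to the other 3 pairs, and the difference was -0.52 (SE 0.22). Cux1 was the only gene whose inhibitor and GFP footprint libraries did not overlap (0.872% of all genes tested), at -0.27 (SE 0.16).

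At the upper end of the footprint differences stood Supt3, Fndc3b and Foxp1. Supt3 had 4.19, 4.55, 3.89 and 3.04 scaled FPKM in inhibitor footprints, against 3.05, 3.86, 3.29 and 2.97 in GFP footprints and 4.11, 4.42, 2.52 and 1.88 in mock footprints. Each inhibitor library exceeded both controls of its number, by little in pair 4 against GFP, and the difference from GFP was 0.19 (SE 0.20, 95% interval -0.25 to 0.63). Fndc3b had 1.14, 0.812, 0.615 and 0.731 scaled FPKM in inhibitor footprints, against 0.987, 0.962, 0.355 and 0.668 in GFP footprints and 0.855, 1.12, 0.369 and 0.797 in mock footprints, with a difference from GFP of 0.075 (SE 0.17). Foxp1 had 1.09, 0.753, 1.71 and 1.54 scaled FPKM in inhibitor footprints, against 1.27, 0.830, 1.21 and 1.62 in GFP footprints and 1.04, 1.23, 1.34 and 0.908 in mock footprints, with a difference from GFP of 0.017 (SE 0.17). Neither gene's groups were apart, and for both the sign changed when single libraries were left out. Nav2, at 0.0030 (SE 0.14), was the other gene not below 0. By role, all 5 vesicle traffic genes described in footprints (median -0.30), all 3 of splicing and RNA modification (-0.19), all 4 enzymes (-0.25) and both of signalling (-0.19) were below 0 against GFP, as were 4 of 6 adhesion and polarity genes (-0.20) and 5 of 7 transcription and chromatin genes (-0.070).

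Against mock, 26 of 29 footprint differences were below 0 (49.3% of all genes tested), with a median of -0.22. In limma 0 were called (0% of all genes tested; 0.0187% with the block, 0 of the list), and 4 were lower at an unadjusted p under 0.05 (1.68%), which were Tcf12, Magi1, Immp2l and Rad51b, while 0 were higher (1.91%). Magi1 alone had no overlap between inhibitor and mock footprint libraries (1.07%). Footprint numbers did not pair inhibitor with mock libraries; with the block all the same, 9 were lower (3.92%). The count without the block was 1 when inhibitor footprint library 2 (1.42% of all genes tested) or mock footprint library 2 (1.53%) was left out and 2 without inhibitor footprint library 3 (1.76%), where the median was -0.15. Between GFP and mock footprints, 20 of 29 were below 0 (53.8% of all genes tested), with a median of -0.042, and 0 were lower (0.216%) or higher (0.244%) at an unadjusted p under 0.05. Of the 29 genes in both tables, 24 were below 0 in RNA and in footprints against both controls. Both controls were compared with the same inhibitor libraries, and the share of all genes tested was not computed for this count.

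Translational efficiency, the footprint difference less the RNA difference, was higher in the list when all libraries were kept. Against GFP this was by about as much as in other long genes. The log2(scaled FPKM + 1) scale shrinks differences of low genes more, and the listed genes were lower in footprints than in RNA. A like fall in both assays can thus give a value above 0. How much of the rise comes from the scale was not tested. For inhibitor against GFP, 8 of 29 genes were below 0 (44% of all genes tested) and the median was 0.15, against 0.032 over all 10497 genes tested and 0.16 over 272 other genes of at least 200 kb. In the interaction test of limma 0 of 29 were called (0% of all genes tested), 0 were higher (0.352%) and 0 lower (0.362%) at an unadjusted p under 0.05. With the replicate block 0 were called again, and 1 was higher at an unadjusted p under 0.05 (1.18% of all genes tested), which was Lpp. Lpp (0.54, SE 0.28) and Ptprk (0.40, SE 0.36) stood highest, and Immp2l (-0.42, SE 0.39) and Macrod2 (-0.19, SE 0.27) lowest. Each of these 4 had an adjusted p of 1 in limma. Footprints of Lpp were 0.449, 0.458, 0.183 and 0.447 scaled FPKM in inhibitor libraries, against 0.674, 0.699, 0.355 and 0.545 in GFP libraries and 0.832, 0.651, 0.419 and 0.552 in mock libraries. Those of Ptprk were 8.87, 5.997, 7.47 and 9.06 in inhibitor libraries, against 9.99, 7.81, 7.65 and 12.6 in GFP libraries and 8.34, 12.2, 9.09 and 12.2 in mock libraries. Both genes were lower in each inhibitor footprint library than in the GFP library of its number. Footprints of Macrod2 were 1.23, 1.94, 1.41 and 2.10 in inhibitor libraries, against 1.70, 1.52, 2.47 and 2.68 in GFP libraries and 1.82, 0.986, 2.496 and 2.36 in mock libraries, and the 3 groups overlapped. On FPKM as deposited the median was 0.42 beside 0.39 over all genes tested, so that the gap to all genes was 0.027 rather than 0.12. The median was 0.054 without GFP footprint library 3 and also with a pseudocount of 0.1, and 0.071 without all libraries numbered 1. Against mock the list's median was 0.15, beside 0.015 over all genes tested and 0.092 over the 272 other long genes. There 11 of 29 were below 0 (47.5%) and 1 gene, Wwox, was higher at an unadjusted p under 0.05 with the block (1.47%). The list's median against mock was 0.026 without mock footprint library 3 and -0.0043 without all libraries numbered 1, so its direction rests on those libraries. Between GFP and mock it was -0.024.

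As a level, the log2 ratio of footprint to RNA was low in these genes in every transfection. Its median over the 29 genes was -1.14 in inhibitor, -1.30 in GFP and -1.22 in mock cells, beside -0.80, -0.83 and -0.81 over 10497 genes tested and -1.01, -1.15 and -1.11 over 272 other long genes. In GFP cells the ratio was lowest for Cux1 (-1.89) and Rptor (-1.85), and highest for Immp2l (0.32), Supt3 (0.19) and Macrod2 (0.17). These are ratios of scaled FPKM + 1 from separately normalised tables, so their zero point is arbitrary and only their order is read.

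The listed genes were then set beside other genes of like level and like span, leaving the list out. Of 10333 other genes whose mean RNA level lay within the range of the list, 51.4% were below 0 between inhibitor and GFP, with a median of -0.0080. Among these, 4565 genes under 20 kb had 44.6% below 0 and a median of 0.028, and 389 genes of at least 200 kb had 76.6% below 0 and a median of -0.18. By span, the median difference of all other genes tested was 0.017 for 5961 genes under 20 kb, -0.0076 for 20 to 50 kb, -0.046 for 50 to 100 kb, -0.082 for 100 to 200 kb, -0.17 for 361 genes of 200 to 500 kb and -0.23 for 49 genes over 500 kb. Within the list's range of RNA levels, 346 genes of 200 to 500 kb had a median of -0.17. There, 43 genes over 500 kb had a median of -0.26, with quartiles of -0.48 and -0.015. The lean of the list is thus shared in direction by other long genes. The list's median (-0.34) was further from 0 than that of either long class, but within the quartiles of those 43 genes. Between GFP and mock, the classes of 200 to 500 kb and over 500 kb, at all levels, had medians of -0.0034 and 0.052.

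In footprints the bands from under 20 kb to over 500 kb had medians of 0.0090, 0.028, 0.024, -0.014, -0.061 (252 genes) and -0.17 (21 genes) for inhibitor against GFP. Across 12466 other genes, the RNA difference correlated with log10 of span at Pearson -0.13 and Spearman -0.16, and across the 34 listed genes at -0.059 and -0.090. For the footprint difference from GFP these were -0.038 and -0.0052 across 10596 other genes, and -0.27 and -0.22 across the 29 listed genes. These correlations are across genes of the same libraries, which are no independent replicates. Within the list, the RNA difference from GFP was -0.020 for Macrod2, the longest, and -0.42 for Auts2, at 1106 kb. Neither was among the 8 lowest in RNA. The next longest genes described, Immp2l (931.5 kb, -0.63) and Wwox (913.1 kb, -0.57), were both among the 8 lowest.

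**Figure D4:**
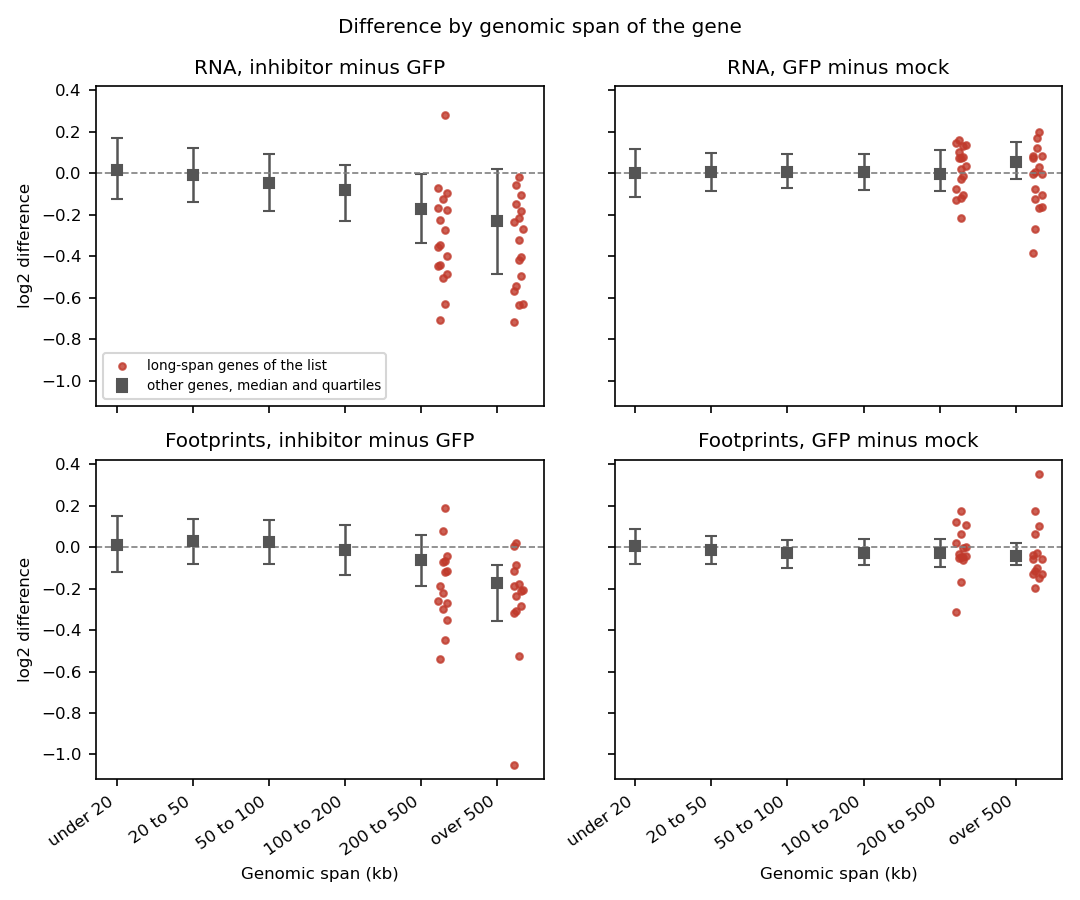
Log2 difference by genomic span of the gene, for RNA (top) and footprints (bottom), inhibitor minus GFP (left) and GFP minus mock (right). Squares are medians and bars the quartiles of other genes tested in each span class (kb), and points are the long-span genes of the list. In RNA for inhibitor minus GFP the squares run from 0.017 under 20 kb to -0.23 over 500 kb, while for GFP minus mock the last 2 lie at -0.0034 and 0.052.

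Few other genes of at least 200 kb passed the test. Called in RNA were 1 of 410 against GFP (0.0159% of all genes tested) and 1 of 410 against mock (0.0239%). In footprints 0 of 273 were called against GFP (0.00937%). With the replicate block, 2 of 410 in RNA (0.255%) and 1 of 273 in footprints (0.075%) were called against GFP. Bcas3 (473 kb), which takes part in cell migration and autophagy, was lower in inhibitor RNA, with a difference of -1.22 from GFP (SE 0.17, adjusted p 0.0324 in limma) and of -1.24 from mock (SE 0.17, adjusted p 0.0226). With the replicate block, Ptprg, a receptor tyrosine phosphatase of 689 kb, was also called in RNA against GFP (-0.98, SE 0.17, adjusted p 0.0498), as was Trappc9, a vesicle tethering gene, in footprints against GFP (-0.87, SE 0.12, adjusted p 0.0297). The 3 longest other genes tested were mixed, with Dmd (2390 kb) at -0.48 (SE 0.29), Ptprd (2271 kb) at 0.018 (SE 0.26) and Pde4d (1302 kb) at -0.36 (SE 0.24), each with adjusted p of 1 in limma. These genes were found through the span annotation and the test, after results of these data were known.

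For 16 of the 37 genes, another gene of the files overlaps the span in the annotation, and for 21 none does. Immp2l holds Lrrn3, Macrod2 holds Flrt3 and Lrba holds Mab21l2 within their spans. Whether exons overlap was not examined, and with counting on strand not stated, reads of such pairs may not be told apart.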

How the data were processed

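Per the file headers, the authors deposited FPKM per gene as RSEM estimates over RefSeq transcripts, in 1 table of 12 RNA libraries and 1 of 12 footprint libraries, with 2 decimals. The programs named are TopHat, Bowtie2, RSEM and CASAVA 1.8.2, on the mm10 assembly, per the submitters' processing notes; versions of the first 3 programs are not stated there. RSEM divides reads that match several transcripts by an estimate, so a listed 0 can be a failed estimate. Per the labels' protocols, footprints came from 80S ribosomes after RNase digestion.

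From the deposited FPKM, each table was scaled by a median of ratios over genes that reached 5 FPKM in all libraries of the table (1717 in RNA, 2960 in footprints), and log2(scaled FPKM + 1) was taken. Genes with a mean of at least 0.5 entered the test, made in R 4.3.3 by limma 3.58.1 (trended, robust, all 3 groups, two-sided, Benjamini-Hochberg adjustment over all genes tested, threshold 0.05). Translational efficiency was the interaction term over 24 libraries. Tables and plots were made in Python 3.11.15 with pandas 2.3.3, numpy 2.4.6, matplotlib 3.10.9 and scipy 1.17.1, and the fits were tested on simulated data. Other scalings, another pseudocount (0.1), other filters, the replicate block and left-out libraries were tried. Depth is unknown, so no counting interval is given. No pair of libraries held identical values (0 pairs).

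Deviations from group means correlated for every numbered pair in RNA (0.344 to 0.674 between inhibitor and GFP, 0.231 to 0.473 between inhibitor and mock, 0.286 to 0.551 between GFP and mock) and in footprints between inhibitor and GFP (0.354 to 0.671), so the numbers were taken as pairs there, from the data since no label explains them. In footprints they reached down to -0.129 between inhibitor and mock and 0.0482 between GFP and mock.

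The listed genes, their role groups and the tests were chosen with earlier results of these data known. Values in every library, in the table or tables concerned, are given for the 8 lowest and 4 highest RNA differences, the 4 lowest and 3 highest footprint differences, the 2 highest and 2 lowest translational efficiency differences and the 3 longest genes described; Mllt3 was added after its values were seen. Of 23917 symbols, 23769 (99.4%) matched the RefSeq table of GRCm38.p6, 22501 of them by current symbol.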

Additional observations from a re-analysis of the deposited data

Results flagged for a closer look

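In 6 of 105 groups of 4 libraries examined (17 genes), 1 library stood apart from the other 3 by Dixon's criterion. Chance gives about 1 in 20, and 5.7% were seen. In footprints, Lpp had 0.183 scaled FPKM in inhibitor library 3, against 0.447 to 0.458 in the other inhibitor libraries. Cux1 had 0.281 in inhibitor footprint library 2, against 0.707 to 0.785 in the others. Cdkal1 had 0.851 in inhibitor footprint library 3, against 3.41 to 3.97 in the others. In RNA, Macrod2 had 1.46 in GFP library 3, against 1.79 to 1.86 in the others. Rad51b had 0.766 in mock RNA library 3, against 2.70 to 3.10 in the others. Auts2 had 0.177 in inhibitor RNA library 1, against 0.784 to 0.882 in the others. That library had the largest ribosomal share and the smallest scaling factor (0.170), so its low values are imprecise. Each of these libraries was the lowest of its group, and 4 of the 6 were numbered 3.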

How the results depend on the processing

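Of 354 alternatives to the medians and counts of called genes over the list, 350 gave a median within 1 SD of the spread between libraries or the same count, and no alternative called a listed gene. This tally says little about stability, since the counts were 0 throughout. For translational efficiency the SD was 0.20, wider than its medians, so even a change of sign could fall within it. RNA and footprint medians of inhibitor against either control stayed below 0 in all alternatives, whereas medians near 0 changed sign. For RNA of GFP against mock (0.012) the median was -0.054 at a mean of at least 5 FPKM and -0.071 to 0.088 with 1 library left out. With 1 library left out, that for footprints of GFP against mock ran from -0.13 to 0.043, and that for translational efficiency of GFP against mock from -0.11 to 0.040. For translational efficiency of inhibitor against mock (0.15) it ran from 0.026 to 0.21 in the same way, and was -0.0043 without all libraries numbered 1. The other 4 were medians on FPKM as deposited, without scaling, where all genes shift too. For RNA the median was -0.60 for inhibitor against GFP (-0.39 over all genes tested), so the gap to all genes was -0.21 rather than -0.32. It was -0.44 for inhibitor against mock (-0.19 over all) and 0.20 for GFP against mock (0.21 over all). For translational efficiency it was 0.42 (0.39 over all). Unscaled, 34 of 34 RNA differences from GFP were below 0, and 1 was lower at an unadjusted p under 0.05 (0.407% of all genes tested). The same count was 1 in RNA against mock (0.313%), in footprints against GFP (0.503%) and in footprints against mock (0.41%).

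The replicate block left every median as it was (-0.34 in RNA and -0.21 in footprints for inhibitor against GFP) and changed no call of a listed gene. At an unadjusted p under 0.05 it gave 9 lower genes, against 4 without it, in footprints against mock, a comparison whose numbers do not pair, and 1 gene of higher translational efficiency, against 0 without it, in each inhibitor comparison. Limited to the 2 groups compared, a fit chosen after seeing the data, it gave 13 lower genes in RNA against GFP (4.29% of all genes tested).

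Leaving out 1 library at a time gave medians of -0.36 to -0.28 in RNA and -0.28 to -0.11 in footprints against GFP, and of -0.38 to -0.24 and -0.29 to -0.15 against mock. Counts of listed genes lower at an unadjusted p under 0.05 ran from 4 to 8 in RNA and 2 to 5 in footprints against GFP. With all libraries kept, 1.45% of all genes tested in RNA and 1.48% in footprints were lower. That share differed between fits with a library left out, so these ranges of counts are not to be read against it.

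Signs near 0 turned. Supt3 in RNA was -0.062 on FPKM as deposited. Macrod2 in RNA was 0.080 without all libraries numbered 1, and without single libraries it ran from -0.13 to 0.068, above 0 without inhibitor RNA library 1 (0.068) or 3 (0.039) or GFP library 4 (0.0037). Cdkal1 ran from -0.20 to 0.061, above 0 without GFP RNA library 2 (0.061) or 4 (0.0069), and Rbfox2 from -0.16 to 0.0083, above 0 without inhibitor RNA library 3 (0.0059) or GFP library 4 (0.0083). In footprints Foxp1 was -0.0076 as deposited and -0.031 after quantile normalization, and ran from -0.075 to 0.14, below 0 without inhibitor library 3 (-0.074) or 4 (-0.043) or GFP library 2 (-0.075). Fndc3b ran from -0.040 to 0.14, below 0 without inhibitor library 1 (-0.0045) or GFP library 3 (-0.040). The cause was not tested. With 4 libraries a group, differences of the listed size lay near or inside the intervals of single genes.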
